A study of Oryctolagus cuniculus with 6 samples.

Results

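Receptors of interleukins, chemokines and tumor necrosis factor (TNF) family ligands were examined in tissue that had newly formed in rabbit skull defects. They were taken from the array's own gene descriptions, as those that hold the word receptor together with interleukin, chemokine or tumor necrosis factor, without antagonist or receptor-associated. The rule found 77 probes for 51 of the 23436 genes on the array. Each gene is given by its brightest probe. Testing asked for a signal flagged well above background on 3 or more arrays, which left 47 of the 51 genes, against 20279 of all 23436, and 40 of the 47 were well above background on all 6 arrays. Nearest inside that limit among the genes reported here were TNFRSF8, CMKLR1 and CCR8, on 4 arrays each. Just outside it stood IL17RB (HPD day 3) and IL20RB (control day 5), on 1 array each. TNFRSF11A and IL17RD were well above background on none.

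HPD is human particulated dentin, a bone graft material made from teeth. Male New Zealand White rabbits aged 4 months (24 in the study) received 4 round defects of 5 mm in the parietal bone, and HPD (0.2 g) went into the right-hand defects while the others stayed empty as controls. New tissue was taken on days 3, 5 and 7, and 1 array was run for each treatment and day, so that the groups are HPD day 3, control day 3, HPD day 5, control day 5, HPD day 7 and control day 7. Filled and empty defects lay in the same skulls, and how many animals stand behind each array is not given in the labels. The HPD effect was therefore tested only over the 3 days together, as the mean of 3 differences between HPD and control, and a difference on 1 day has no test.

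These receptors let cells read inflammatory signals. Receptors of the interleukin-1 and interleukin-17 families recruit adaptors that lead to NF-κB, type I and type II cytokine receptors act through JAK kinases and STAT proteins, chemokine receptors are G protein-coupled receptors that steer leukocytes, and TNF receptors recruit TRAF or death-domain proteins. In healing bone they are carried by the neutrophils, macrophages and lymphocytes that enter the clot and also by stromal and bone-forming cells. In whole tissue, fewer cells of a type and less RNA per cell cannot be told apart.

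A level below is the log2 signal minus the array's 75th percentile, so that 0 is the level under which 75% of the array's probes lie. Levels are compared between arrays for 1 gene and never between genes, whose probes differ. A summed signal, given for some marker lists, adds the unlogged signals of the list's genes, so its brightest probes weigh most. Across arrays 78.1 to 86.4% of spots were well above background and 0 were saturated. The spread of the negative-control spots was larger on the HPD arrays of days 5 and 7 (SD 13.0 and 5.78 intensity units) than on the control arrays of the same days (0.324 and 0.109), so faint genes are less certain there. On day 3 it was 6.42 with HPD and 7.36 in the control. Both day 3 arrays lay on slide 1 and the other 4 on slide 2, so day 3 and slide 1 cannot be told apart, while HPD and control of a day always shared a slide.

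With HPD, no receptor gene reached an adjusted p under 0.05, and neither did any other gene on the array (0% of 20279 features, limma with Benjamini-Hochberg adjustment). Of the 47 tested genes, 38 had a higher mean with HPD (62.7% of all features did) and 9 a lower one, with a median difference of 0.18 on the log2 scale against 0.09 over all features. At an unadjusted p under 0.05 stood 3 genes, all higher with HPD, among them IL1RN and IL7R. Over all features 7.18% were higher and 1.4% lower at that level, so 3 of 47 lies near the background. Higher on all 3 days were 17 of 47 genes, against 26.4% of all features, and lower on all 3 days were 3 (CX3CR1, TNFRSF21 and RELL1), against 11%. The median of all features itself depended on the scaling. It was 0.09 here, 0.02 after quantile normalization, -0.04 with median scaling and 0.00 with another background correction (normexp), where the receptor genes stood at 0.12, 0.04 and 0.01.

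**Figure D1:**
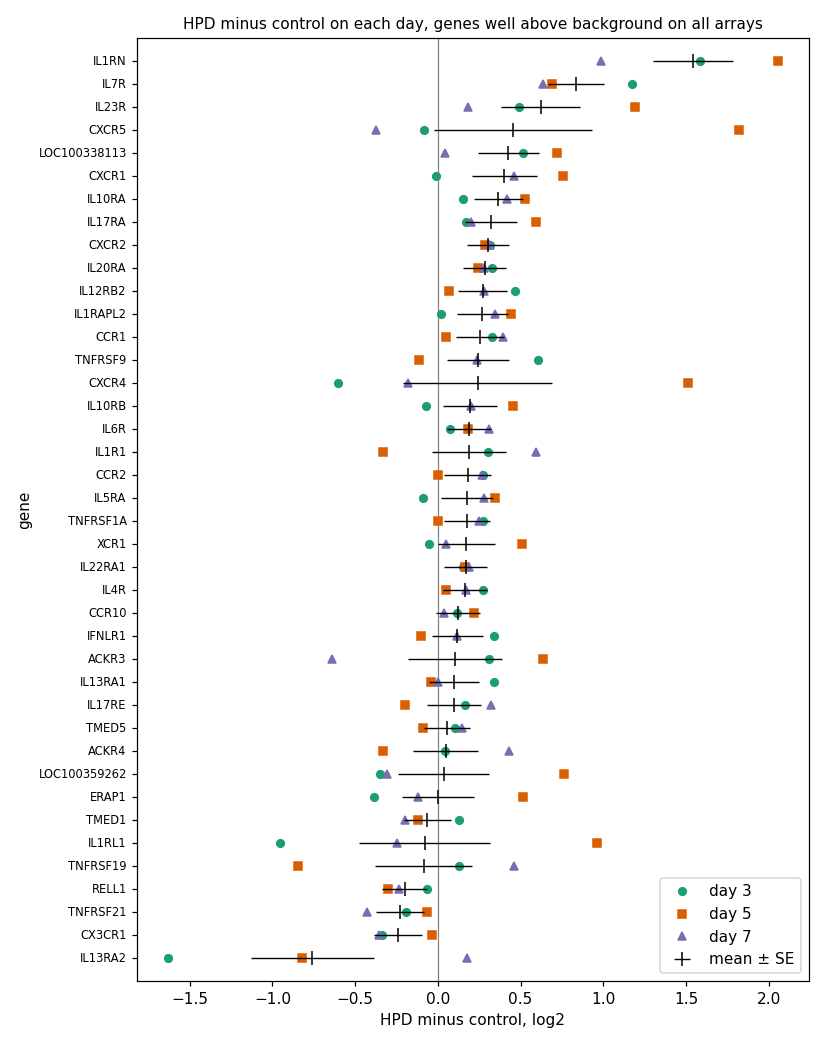
HPD minus control on the log2 scale (horizontal axis) for the 40 genes well above background on all 6 arrays (vertical axis, ordered by their mean). Green circles, orange squares and violet triangles are days 3, 5 and 7, 1 pair of arrays each, and black lines are the mean ± SE of the limma fit. IL1RN and IL7R lie right of 0 on every day, while CXCR4 and CXCR5 have 1 point far to the right, on day 5.

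The gene with the largest HPD difference is by its sequence record not a receptor. The array calls it IL1R1, the signalling receptor of interleukin-1, but its accession (NM_001082770) belongs in RefSeq to IL1RN, the interleukin-1 receptor antagonist, a secreted protein that blocks that receptor. IL1R1 itself is measured by a probe that the array lists under LOC100352905. A probe of each is shown because the array's name would lead a reader to the wrong gene. They lie at chr2:97877444-97877503 (plus strand) and chr2:90255115-90255174 (minus strand) of oryCun2, the rabbit build of the array design. The IL1RN probe shown is the dimmest of its 3 probes. The IL1RN levels given below come from the brightest, at chr2:97881023-97881082 (plus strand).
IL1RN (listed as IL1R1): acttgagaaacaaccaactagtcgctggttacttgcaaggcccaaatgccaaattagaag
IL1R1 (listed as LOC100352905): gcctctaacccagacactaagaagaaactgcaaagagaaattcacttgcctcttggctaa

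IL1RN had levels of 7.48, 6.70 and 5.17 with HPD on days 3, 5 and 7, against 5.90, 4.64 and 4.19 in the controls. The HPD array was the higher on each day, by 3.00-fold, 4.16-fold and 1.98-fold. Its mean difference was 1.54 ± 0.24 (SE, log2; limma, adjusted p = 0.554). All 3 of its probes gave the same sign, with mean differences from 1.27 to 1.55. It was also lower on day 7 than on day 3 in both treatments, with differences of -2.31 with HPD and -1.71 in the control. IL1R1 proper had -0.13, -0.25 and 0.18 with HPD against -0.43, 0.09 and -0.41 in the controls, so HPD was higher on days 3 and 7 and lower on day 5. Its mean difference was 0.19 ± 0.22 (log2). Of the 51 genes, 3 others are not receptors either: TMED1 and TMED5, which carry names of an IL1RL1 ligand, and ERAP1, a peptidase known for trimming peptides and for shedding a TNF receptor. Their mean HPD differences were -0.06, 0.05 and 0.00. Without these 4 genes, 47 receptors remain, 43 of them tested. Of those, 35 were higher (62.7% of all features were) and 8 lower with HPD, with a median of 0.18.

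Among the type I cytokine receptors, 9 of 10 genes had a higher mean with HPD (62.7% of all features did). On all 3 days, 6 were higher (26.4% of all features). IL7R, the chain that binds interleukin-7 and keeps T cells alive, had levels of 0.76, -0.10 and 0.07 with HPD on days 3, 5 and 7, against -0.41, -0.79 and -0.57 in the controls. Every HPD array lay above every control array. The mean difference was 0.83 ± 0.17 (log2; limma, adjusted p = 0.554), and it was 1.17, 0.69 and 0.64 on the 3 days. Its ligand IL7 did not share that order, with a mean difference of -0.15 ± 0.21 (log2).

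The feature LOC100338113, described as like the interleukin-2 receptor alpha chain, had -0.25, -0.39 and -0.48 with HPD and -0.76, -1.11 and -0.52 in the controls. HPD was the higher on each day, by 0.04 only on day 7. The feature's other probe, also well above background on all 6 arrays, was higher with HPD by 0.83, 0.37 and 0.60. IL12RB2, a chain of the interleukin-12 receptor, was higher by 0.47, 0.06 and 0.28. The T and B cell markers that go with such receptors had medians of -0.16, 0.68 and 0.23 on days 3, 5 and 7 (HPD minus control, 18 genes). Their summed signal, in multiples of each array's 75th percentile, was 13.1, 13.4 and 11.4 with HPD and 14.1, 9.12 and 8.88 in the controls. Their part in the values of IL7R was not tested.

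IL23R, which with a second chain binds interleukin-23, had -1.81, -2.18 and -1.996 with HPD and -2.29, -3.38 and -2.18 in the controls. The control of day 5 was the lowest of the 6 arrays, and the day 5 difference was 2.29-fold. Its 4 probes disagreed, with mean differences from -0.21 to 0.62. The brightest and its neighbour, both well above background on all 6 arrays, are shown with their 20 shared bases in capitals, at chr13:98994673-98994732 and chr13:98994713-98994772 (minus strand, oryCun2).
IL23R, brightest probe: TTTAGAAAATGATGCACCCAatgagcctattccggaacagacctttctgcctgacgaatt
IL23R, neighbouring probe: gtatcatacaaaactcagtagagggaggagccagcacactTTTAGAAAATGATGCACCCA
The first gave a mean HPD difference of 0.62 (0.24 with normexp) and the second -0.12, so the direction for IL23R rests on the choice of probe. Of the ligand's subunits, IL12B had a mean difference of 0.96 (limma, adjusted p = 0.554) and IL23A -0.21.

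IL13RA2 went the other way from most genes. It is a receptor that binds interleukin-13 tightly and is known as a decoy. Its probe, shown as the one with the largest deficit under HPD, lies at chrX:63507051-63507108 (minus strand, oryCun2).
IL13RA2: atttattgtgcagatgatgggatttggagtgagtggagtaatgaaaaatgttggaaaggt
Its levels were -3.74, -2.88 and -1.76 with HPD, against -2.11, -2.06 and -1.93 in the controls. The controls stayed within 0.2 of each other, and the HPD arrays climbed from far below them on day 3 to just above them on day 7. HPD minus control was -1.63, -0.82 and 0.17, with a mean of -0.76 ± 0.37 (log2; limma, adjusted p = 0.559). With normexp the mean was -0.39. IL4R and IL13RA1, which form the signalling receptor for interleukin-13, were nearly level: IL4R had 2.85, 2.34 and 2.45 with HPD against 2.58, 2.29 and 2.28 in the controls, and IL13RA1 had 0.76, 0.69 and 0.21 against 0.42, 0.73 and 0.20. IL6R, the chain that binds interleukin-6, was higher with HPD by 0.07, 0.18 and 0.31. IL5RA, the eosinophil receptor chain for interleukin-5, differed by -0.09, 0.35 and 0.28, and LOC100359262, described as like the interleukin-15 receptor alpha chain, by -0.35, 0.76 and -0.31.

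All 5 tested type II cytokine receptors had a higher mean with HPD (62.7% of all features did), and 3 of them on each day (26.4%). IL10RA, the chain that binds the anti-inflammatory interleukin-10, had 0.23, 0.47 and 0.18 with HPD and 0.07, -0.06 and -0.23 in the controls. Every HPD array lay above every control array, by small steps, with a mean difference of 0.36 ± 0.15 (log2; limma, adjusted p = 0.554). Its partner IL10RB differed by -0.07, 0.45 and 0.20. IL20RA, a receptor chain for interleukins 19, 20 and 24, was higher by 0.33, 0.24 and 0.28 (mean 0.28, and 0.06 with normexp), and IL22RA1, which binds interleukin-22, by 0.15, 0.16 and 0.18. IFNLR1, the receptor chain for lambda interferons, differed by 0.34, -0.10 and 0.12. The interleukin-17 receptors add IL17RA, the shared chain of that family, which was higher with HPD by 0.17, 0.59 and 0.20. IL17RE differed by 0.17, -0.20 and 0.32, and its mean difference of 0.10 turned negative under 3 of the scalings given in the closing section.

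Of the 5 interleukin-1 family receptors tested, 3 had a higher mean with HPD (62.7% of all features did) and 2 a lower one. IL1RL1, also called ST2, is the receptor for interleukin-33 on mast cells, eosinophils and type 2 lymphoid cells. Its probe, at chr2:90078245-90078304 (minus strand, oryCun2), is shown for the lower level on day 7 described further on.
IL1RL1: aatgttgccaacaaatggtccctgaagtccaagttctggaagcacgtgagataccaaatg
It had -2.56, -2.48 and -3.96 with HPD, against -1.61, -3.44 and -3.71 in the controls. HPD was lower on day 3 by 0.95, higher on day 5 by 0.96 and lower on day 7 by 0.25, and the mean difference was -0.08 ± 0.39. The 6 eosinophil and mast cell markers measured had medians of -1.35, 0.31 and 0.15 for HPD minus control on the 3 days. These medians had the signs of IL1RL1 on days 3 and 5. Of the 6 markers, 4 were lower and 2 higher with HPD on day 3, and 5 were higher and 1 lower on day 5. Their summed signal was 3.89, 2.72 and 1.60 with HPD and 20.7, 1.78 and 1.40 in the controls (multiples of the 75th percentile), highest in the day 3 control as for IL1RL1. Their part in it was not tested.

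IL18R1, the chain that binds interleukin-18, had -2.84 and -2.89 with HPD on days 3 and 5, against -3.44 and -3.89 in the controls. On day 7 it was not well above background with HPD, and the control was at least 2.27-fold higher. This bound takes, for the dim array, the larger of the gene's own signal and the faintest signal that counted there as well above background. It holds for the IL18R1 probe used. The other probes differed on day 7 by -0.05 and -0.94 and were well above background on 3 and 0 arrays. The 3 IL18R1 probes ranged from -0.01 to 1.62 in the mean HPD difference. IL1RAPL1 and IL1RAPL2, known from synapses, had mean differences of 0.01 and 0.27.

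Among the 12 chemokine receptors, 10 had a higher mean with HPD (62.7% of all features did). The clearest single-day differences were on day 5, in CXCR4 and CXCR5. CXCR4 is the receptor for CXCL12 and holds leukocytes and stem cells in marrow and wounds. It has 5 probes that differ by a few bases. The brightest and one shifted against it share 56 bases, in capitals, and lie at chr7:73686599-73686658 and chr7:73686603-73686662 (minus strand, oryCun2), so that their agreement is that of nearly 1 probe measured again.
CXCR4, brightest probe: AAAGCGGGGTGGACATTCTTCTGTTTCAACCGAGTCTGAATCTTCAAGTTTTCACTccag
CXCR4, shifted probe: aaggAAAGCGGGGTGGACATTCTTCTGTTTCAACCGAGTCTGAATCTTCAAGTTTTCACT
CXCR4 had 1.68, 1.61 and 0.24 with HPD and 2.28, 0.10 and 0.42 in the controls. The HPD arrays kept a like level on days 3 and 5, while the control of day 5 stood far under that of day 3. HPD was 2.85-fold higher on day 5 and lower on days 3 and 7, by 0.60 and 0.18 on the log2 scale. The mean difference was 0.24 ± 0.45, and the 5 probes ranged from 0.24 to 0.34.

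CXCR5 guides B cells and follicular T cells towards CXCL13. Its probe, shown for the largest day 5 difference among the receptors, has no position listed on oryCun2.
CXCR5: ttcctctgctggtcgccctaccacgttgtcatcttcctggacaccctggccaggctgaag
It had 0.84, 0.74 and 0.28 with HPD, against 0.93, -1.08 and 0.66 in the controls. Only the day 5 control stood apart, and HPD was 3.53-fold higher on that day, with differences of -0.08 and -0.37 on days 3 and 7. The mean was 0.45 ± 0.48, and without day 5 it was -0.23. The ligand CXCL13 differed by a mean of 0.11 ± 0.20.

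CXCR1 and CXCR2 are the neutrophil receptors for CXCL8 and related chemokines. CXCR1 had 1.43, 1.95 and 1.49 with HPD and 1.44, 1.19 and 1.03 in the controls, so the arrays of day 3 were equal and HPD was higher on days 5 and 7, by 0.76 and 0.46. CXCR2 had 0.91, 0.67 and 0.46 with HPD and 0.60, 0.39 and 0.15 in the controls. It was higher with HPD by nearly the same step on each day, 0.31, 0.28 and 0.31 (mean 0.30 ± 0.13, log2; limma, adjusted p = 0.554). With median scaling the CXCR2 mean was 0.17. The ligand CXCL8 of both receptors had 4.25, 4.44 and 1.24 with HPD and 3.41, 1.31 and -0.68 in the controls. Its mean difference was 1.96 ± 0.46 (log2; limma, adjusted p = 0.554). The 13 neutrophil markers measured had medians of -0.91, 0.83 and 0.40, and a summed signal of 586, 720 and 145 with HPD against 1480, 310 and 124 in the controls. Their median and sum were lower with HPD on day 3, where CXCR2 was higher. Of the 13 markers, 10 were lower and 3 higher on that day. The part of these markers in the receptor values was not tested.

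Receptors of monocytes and macrophages differed by smaller steps. CCR1, which binds CCL3 and CCL5, had -0.63, -1.09 and -0.92 with HPD and -0.96, -1.14 and -1.31 in the controls, higher on each day. CCR2, the receptor for CCL2, was higher by 0.27 on days 3 and 7 and level on day 5. CX3CR1, the receptor for CX3CL1 and a mark of patrolling monocytes, was lower on each day, with -3.60, -3.77 and -3.69 with HPD and -3.26, -3.74 and -3.34 in the controls. Its mean difference was -0.24 ± 0.15, while its ligand CX3CL1 had 0.67 ± 0.15 (log2; limma, adjusted p = 0.554). All 12 macrophage markers measured had a higher mean with HPD (62.7% of all features did), with medians of 0.39, 0.67 and 0.31 on the 3 days. Their summed signal was 59.4, 43.2 and 31.2 with HPD against 41.3, 22.0 and 23.8 in the controls. Their part in these values was not tested.

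Of the other chemokine receptors, XCR1 of cross-presenting dendritic cells differed by -0.05, 0.51 and 0.05, and CCR10, known for homing of T cells to skin, by 0.11, 0.22 and 0.04. CCR9, known for homing to the gut, was lower with HPD on day 3 (-4.84 against -4.03) and higher on day 5, by 0.65 on the log2 scale. CCR8 and the chemerin receptor CMKLR1 were well above background with HPD on day 3 and not in the control. This bounds the excess at 2.17-fold or more for CMKLR1. For the CCR8 probe used, the bound of 1.99-fold is the measured difference itself. The other 4 CCR8 probes had HPD higher on day 3, by 0.31 to 4.77 on the log2 scale. The smallest came from a probe well above background on 4 arrays and the largest from a probe so on 1 array. On day 5 the CCR8 probe used had the control at least 1.25-fold higher, but the probes disagreed: the other 4, which overlap it, had HPD higher on that day, 1 of them (by 1.66 on the log2 scale) well above background on as many arrays. ACKR3, a scavenger of CXCL12, had -2.70, -2.86 and -3.62 with HPD and -3.01, -3.49 and -2.99 in the controls, and turned from higher with HPD on days 3 and 5 to lower on day 7. ACKR4, which scavenges CCL19 and CCL21, differed by 0.04, -0.33 and 0.43, and its other probe by 0.31, -0.51 and -1.27, so that they parted on day 7 and their means, 0.05 and -0.49, have opposite signs.

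**Figure D2:**
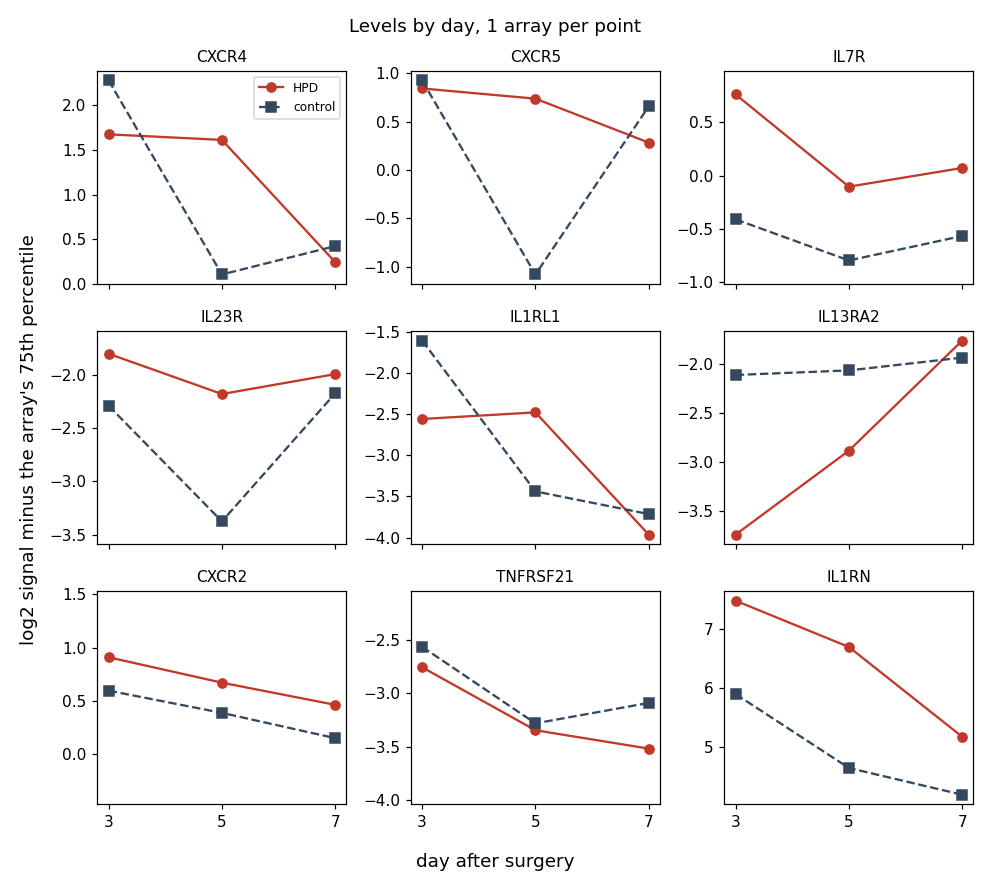
Levels (vertical axis, log2 signal minus the array's 75th percentile; each panel has its own range) on days 3, 5 and 7 (horizontal axis) for 9 genes. Red circles joined by full lines are HPD and dark squares joined by broken lines are controls, 1 array per point, with no error bars because there is 1 array per group. The control curves of CXCR4, CXCR5 and IL23R dip on day 5, and IL13RA2 is low with HPD on day 3.

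The TNF receptors showed no common direction, with 3 of 5 tested genes higher on average with HPD (62.7% of all features) and 2 lower. TNFRSF1A, the widespread TNF receptor, had -0.35, -0.72 and -0.44 with HPD and -0.62, -0.72 and -0.69 in the controls, while TNF itself was higher with HPD by a mean of 0.89 ± 0.13 (log2; limma, adjusted p = 0.554). TNFRSF9, a costimulatory receptor of activated T cells also called 4-1BB, had -0.95 with HPD and -1.56 in the control on day 3, and differed by -0.12 and 0.24 on days 5 and 7. TNFRSF19, also called TROY, had -1.90, -1.83 and -1.08 with HPD and -2.03, -0.99 and -1.54 in the controls, and was lower with HPD on day 5 alone. TNFRSF21, or death receptor 6, had -2.76, -3.35 and -3.52 with HPD and -2.56, -3.28 and -3.09 in the controls, lower each day (mean difference -0.23 ± 0.15). Its 4 overlapping probes shared the sign of that mean, but on day 5 the other 3 were higher with HPD, by 0.09 to 0.35. RELL1, a small relative of the TNF receptor RELT, differed by -0.07, -0.30 and -0.23. TNFRSF8 (CD30) was well above background on 4 arrays and differed by a mean of 0.06.

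Day by day, HPD was at least 2-fold higher on day 3 for 2 of 45 genes measured on both arrays (IL1RN and IL7R; 3.58% of all features) and at least 2-fold lower for 1 (IL13RA2; 2.9%). On day 5 it was at least 2-fold higher for 4 of 44 genes (IL1RN, CXCR5, CXCR4 and IL23R; 4.85%) and lower for 0 (1.68%). On day 7 no gene of 41 passed 2-fold in either direction (1.64% higher and 0.843% lower over all features). IL1RN came closest, at 1.98-fold. These counts leave out genes with only a bound. Among them are CMKLR1, at least 2.17-fold higher on day 3, and IL18R1, at least 2.27-fold lower on day 7 by the probe used. With 1 array per group, these counts have no replicate check.

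**Figure D3:**
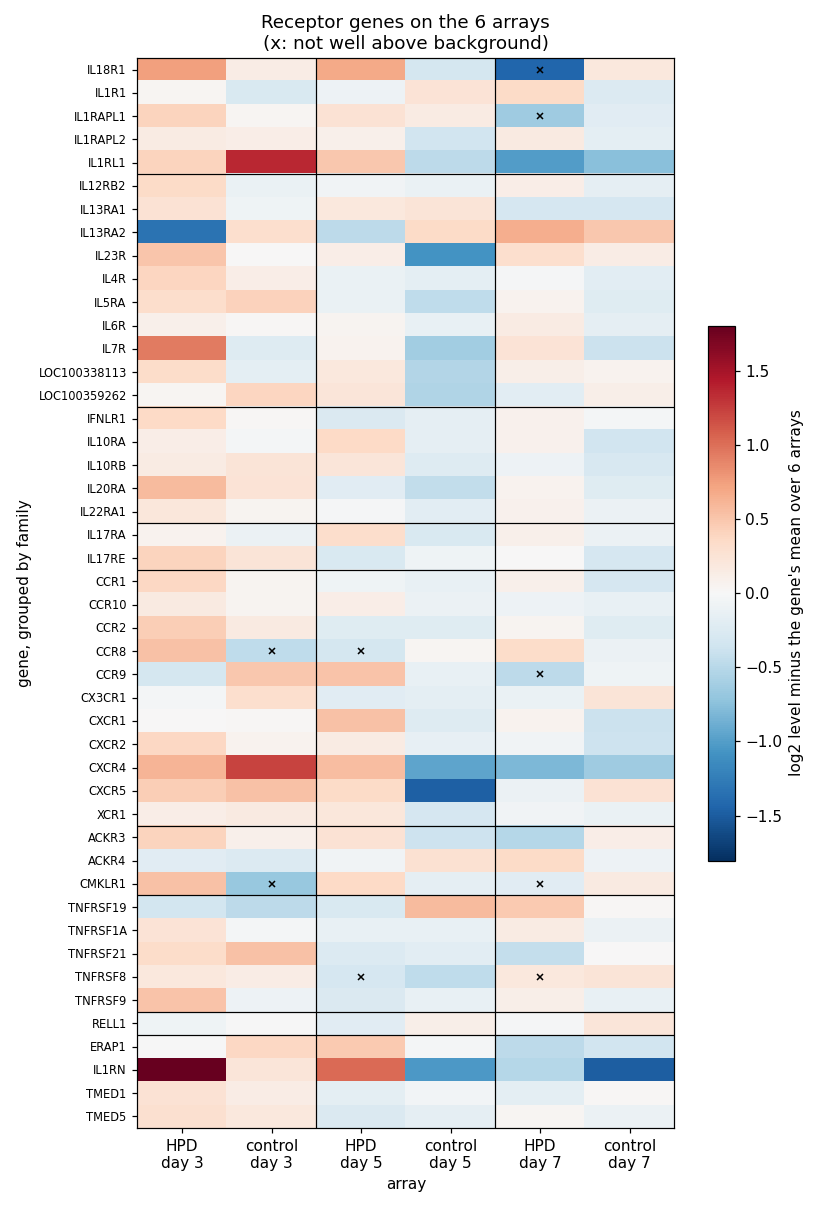
Level of 46 of the tested genes on each array, minus the gene's own mean over the 6 arrays (colour, log2; red is above the mean). Columns are the arrays, HPD left of the control of the same day. Rows are grouped by family, from top the interleukin-1, type I, type II and interleukin-17 receptors, chemokine and chemokine-like receptors, TNF receptors, RELL1 and the 4 genes that are not receptors. Crosses mark values not well above background, and the darkest fields of the day 3 control column belong to IL1RL1 and CXCR4.

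Between days 3 and 7, no receptor gene passed an adjusted p under 0.05 in either direction, and over all features 1 was called higher (0.00493%) and none lower (0%; limma with Benjamini-Hochberg adjustment); between days 5 and 7 none was called (0%). Of the 47 genes, 37 had a lower mean on day 7 (51.1% of all features did) and 10 a higher one, with a median difference of -0.25 against -0.01 over all features. At an unadjusted p under 0.05, 7 were lower and 0 higher, against 10.1% lower and 10.8% higher of all features. Lower in both treatments were 31 of 47, against 36% of all features. With normexp the median was 0.03 for the receptor genes and 0.17 for all features, so the sign of the receptor median rests on the background correction. Since day 3 had a slide of its own, slide and time cannot be told apart here.

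Among the 7 genes were IL1RN (-2.01 ± 0.30), IL1RL1 (-1.76 ± 0.48), CXCR4 (-1.65 ± 0.55), TNFRSF21 (-0.64 ± 0.18), IL20RA (-0.49 ± 0.16) and CXCR2 (-0.45 ± 0.16), each as day 7 minus day 3 on the log2 scale ± SE. Their adjusted p-values in limma ran from 0.117 to 0.225. Day 7 minus day 3 was -1.40 with HPD and -2.11 in the control for IL1RL1, and -1.43 and -1.86 for CXCR4. IL1RN passed the adjusted threshold with normexp, where 1053 features were called. CXCR4 and CXCR2 kept most of their size there (-1.45 and -0.41), while IL1RL1 shrank to -0.64, TNFRSF21 to -0.07 and IL20RA to -0.05. Within slide 2, day 7 minus day 5 was -1.37 with HPD and 0.32 in the control for CXCR4, and -1.48 and -0.27 for IL1RL1, so the step came between days 5 and 7 with HPD and between days 3 and 5 in the control.

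IL13RA2 and TNFRSF19 had the largest positive day differences. IL13RA2 was higher on day 7 than on day 3 by 1.98 with HPD and by 0.18 in the control (mean 1.08 ± 0.46, log2; limma, adjusted p = 0.271), and TNFRSF19 by a mean of 0.65 ± 0.36. At least 2-fold lower on day 7 than on day 3 were 3 of 41 genes with HPD (4.49% of all features) and 3 of 44 in the control (5.65%), in both treatments IL1RN, CXCR4 and IL1RL1. At least 2-fold higher were 1 gene with HPD (IL13RA2; 4.45%) and 0 in the control (6.63%). Markers of neutrophils had a median of -3.15 for day 7 minus day 3, macrophages -0.86, lymphocytes -0.54 and eosinophils and mast cells -1.58, while osteoblast and fibroblast markers had 1.35 and 1.11. The part of these cells in the receptor values was not tested.

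**Figure D4:**
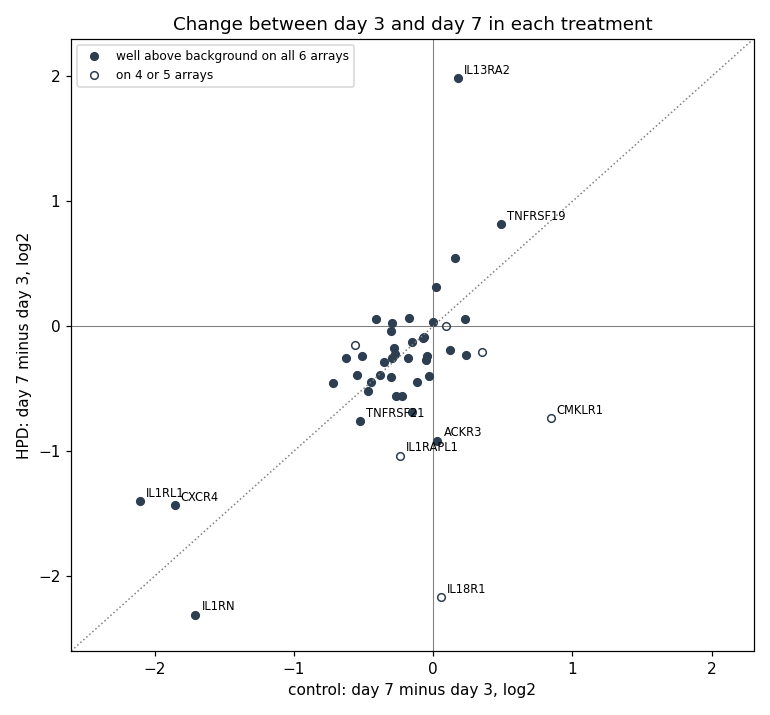
Day 7 minus day 3 on the log2 scale with HPD (vertical axis) and in the controls (horizontal axis), 1 point for each of 46 tested genes. Filled points were well above background on all 6 arrays and open points on 4 or 5, the dotted line marks equal change, and genes beyond 0.75 in either treatment are named. Most points lie below and left of 0, IL13RA2 stands alone at the top, and IL1RN, CXCR4 and IL1RL1 are low in both treatments.

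Several receptors are neighbours in the genome. Within 500 kb of each other on oryCun2 lie CCR9, XCR1, CCR1 and CCR2 (chr9:14249893-14546016), CCR8 and CX3CR1 (chr9:4358024-4413296), IL18R1, IL1RL1 and IL1R1 (chr2:90031808-90255174), CXCR1 and CXCR2 (chr7:159500545-159539123), IL12RB2 and IL23R, and IFNLR1 and IL22RA1 (both on chromosome 13). Neighbours did not share 1 pattern: on day 3, HPD minus control was -0.81 for CCR9 and 0.33 for CCR1, and 0.60 for IL18R1 and -0.95 for IL1RL1. Probes of different genes shared at most 12 bases in a row.

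The ligands and signalling proteins of these receptors were read from lists of symbols. Of 47 ligand genes tested (82 listed), 11 were higher with HPD at an unadjusted p under 0.05 and 0 lower (7.18% and 1.4% of all features), with a median of 0.28 against 0.09 over all features. They were TNF, TNFSF13B, TNFSF4, CXCL8, CCL4, CX3CL1, IL1B, IL12B, IL22, LIF and IL1RN, which is also counted above. For day 7 minus day 3, 16 were lower and 5 higher at that level (10.1% and 10.8% of all features), with a median of -0.39 against -0.01 over all features. Of 28 signalling genes tested (52 listed), 4 were higher and 0 lower with HPD at that level (7.18% and 1.4% of all features): TAB2, IKBKB, NFKB2 and NFKBIA, an adaptor, a kinase, a transcription factor subunit and an inhibitor of NF-κB. Their median was 0.10, near that of all features, and no ligand or signalling gene passed an adjusted p under 0.05 for HPD in limma.

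A list of 44 receptor symbols found 7 more receptors of these families, all tested, whose descriptions do not meet the rule. The array was not searched for others. IL1R2, the decoy receptor for interleukin-1, had 2.85, 3.32 and -0.30 with HPD and 3.03, 0.93 and -0.71 in the controls. As in CXCR4, the day 5 control lay far below HPD, and both treatments were low on day 7. Its mean HPD difference was 0.87 ± 0.53 and day 7 minus day 3 was -3.44 ± 0.65 (log2; limma, adjusted p = 0.129). TNFRSF4, also called OX40, had a mean HPD difference of 0.69 (limma, adjusted p = 0.554) with 4 arrays well above background, and its ligand TNFSF4 had 0.58. IL6ST, TNFRSF11B (osteoprotegerin), CD40 and LTBR had mean HPD differences between 0.09 and 0.21, and FAS had -0.06.

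**Figure D5:**
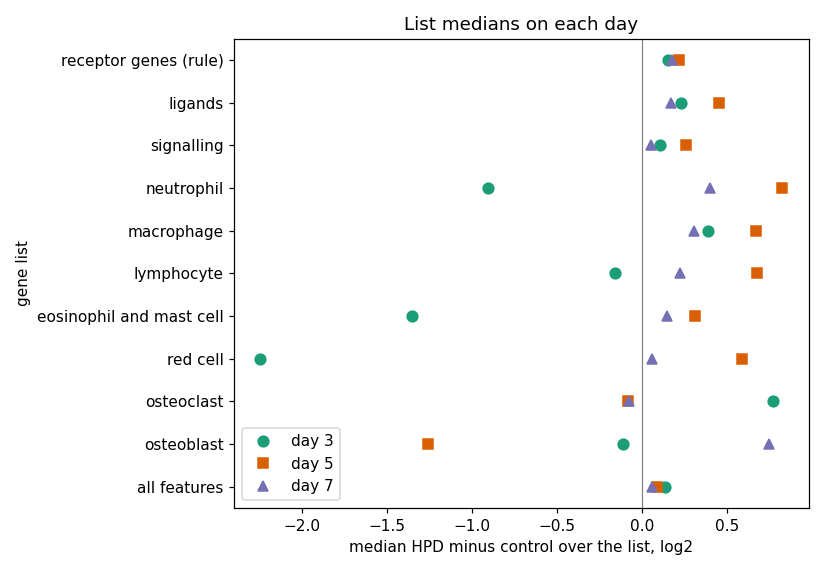
Median of HPD minus control (horizontal axis, log2) over each gene list (vertical axis), with green circles for day 3, orange squares for day 5 and violet triangles for day 7. The receptor genes stay between 0.15 and 0.22, while the neutrophil, eosinophil and mast cell, and red cell markers are far below 0 on day 3 and above it on day 5.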

How the data were processed

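Total RNA of each group was labelled with Cy3 and read on 1 single-colour Agilent rabbit array. Per the file headers, the deposited values are intensities from Feature Extraction 10.5.1.1, as background-corrected processed signals with a flag for spots well above background; the array design names oryCun2. From them, outlier spots (41 probes) were dropped, spots of a probe averaged and log2 values set relative to each array's 75th percentile. Names came from the files or from RefSeq by accession, which named 49 of the 51 genes. The arrays' number limits the precision.

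limma 3.58.1 in R 4.3.3 fitted treatment and day additively over 6 arrays, with 2 residual degrees of freedom, on all 20279 features above background on at least 3 arrays, with Benjamini-Hochberg adjustment and a threshold of 0.05. It was tested on simulated data. With 1 array per treatment and day, a gene's own spread is how HPD minus control varied between the 3 days. The SEs and p-values use limma's moderated spread, which draws that value towards a spread shared by all features (prior degrees of freedom 2.47). Genes with steady differences, such as CXCR2, therefore have a larger SE than their 3 days alone would give. Technical variation and an HPD effect that changes with the day cannot be told apart in the gene's own spread.

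Genes named are the 8 highest and 8 lowest by the mean HPD difference and by day 7 minus day 3 among those above background on all 6 arrays, the 3 highest and lowest on each day, and a list of receptors; other receptors of the rule were added after their values were seen. 1 gene of the rule is part of the counts and is not reported here. The receptor genes and all gene lists were chosen with earlier results of these data known.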

Additional observations from a re-analysis of the deposited data

How the results depend on the processing

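No HPD difference of a receptor gene, or of any feature, passed the adjusted threshold under any of the 10 alternatives; with 1 array per group the precision is low. The median HPD difference of the receptor genes was 0.18, and it was 0.014 with normexp, 0.12 with quantile normalization, 0.042 with median scaling and 0.13 without day 3, which is also the value within slide 2. Slide 1 holds day 3 alone and gives only its single differences. Genes higher at an unadjusted p under 0.05 numbered 3, and 5 with the mean of all probes, 6 without day 7 and 1 without the day term. Lower ones numbered 0, and 3 with quantile normalization and 1 without a filter on faint features, without day 5 and without day 7. At least 2-fold higher on day 3 were 2 genes, and 1 with median scaling and 4 without the filter; lower were 1, and 0 with normexp, 3 with quantile normalization and 2 with median scaling. On day 7, quantile normalization gave 1 higher and no filter 1 lower, against 0. For day 7 minus day 3, normexp called 1 gene lower (IL1RN) against 0. Without the filter, 5 genes were 2-fold lower with HPD (3 with it) and 2 were higher in the control (0 with it). The other 2-fold counts kept within 1.5 times.

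Of 33 named genes, normexp shrank the HPD difference of 9 and the day 7 minus day 3 difference of 7 by over 1.5 times with the sign kept; median scaling shrank 13 and 2. Single genes changed sign, not only those near 0. For example, in the fit reported, CXCR5 was 0.45 and CXCR4 0.24 for HPD. For day 7 minus day 3, IL18R1 was -1.06, ERAP1 -0.59 and CCR9 -0.36. Where a day was left out, the HPD difference is the mean of the remaining days, and CXCR5 and CXCR4 were higher with HPD on day 5 alone. Why signs changed under the other settings was not tested. HPD difference with normexp: ACKR4 -0.096, CCR2 -0.0098, ERAP1 -0.12 and IL17RE -0.023. With quantile normalization: ACKR3 -0.051, ACKR4 -0.11, ERAP1 -0.15 and IL17RE -0.052. With median scaling: ACKR3 -0.031, ACKR4 -0.086, ERAP1 -0.13, IL13RA1 -0.034 and IL17RE -0.037. With the mean of probes: ACKR4 -0.22 and IL18R1 0.62. Without day 3: ACKR3 -0.0015, CCR9 0.12, IL13RA1 -0.020 and IL1RL1 0.36. Without day 5: ACKR3 -0.16, CXCR4 -0.39, CXCR5 -0.23, ERAP1 -0.26 and TNFRSF19 0.29. Without day 7: ACKR4 -0.15, IL17RE -0.016, IL18R1 0.80, IL1R1 -0.015, IL1RL1 0.0039 and TMED1 0.0039. Day 7 minus day 3 with normexp: ACKR3 0.029, CCR2 0.027, CCR9 0.31, CX3CR1 0.28, ERAP1 0.092, IL18R1 0.061, IL23R 0.091, IL6R 0.018 and TMED1 0.069; with the mean of probes: ACKR4 -0.065 and LOC100338113 -0.13.

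The fit reported compares HPD and control within days, as 3 pairs. By replicate number no paired analysis was possible because each treatment and day has 1 array.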
